A study of Williopsis jadinii with 8 samples.

Results

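Of the 8604 transcripts that the arrays measured in Candida utilis, an industrial yeast listed under the name Williopsis jadinii, 26 were higher in the wild type on xylose than on glucose and higher again in strain TMS174 on xylose. They were chosen by their measured signal: above background on all 8 arrays, at least 1.5-fold higher in the wild type on xylose than on glucose (the sugar step), and at least 1.5-fold higher in TMS174 than in the wild type on xylose (the strain step). Above background on all 8 arrays were 7210 transcripts. Of these, 1537 (21.3%) passed the sugar step, 318 (4.41%) passed the strain step, and 26 passed both. Both steps are therefore what selected the set, and their sizes below are a description with no test.

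The cultures fell into 3 groups. TMS174, which the labels call a xylose-fermenting strain and the series title a recombinant, was sampled after 24 h on xylose (n = 2). The wild type (WT) was strain NBRC0988, taken at 24 h on xylose (n = 3) and at 10.5 h on glucose (n = 3). The series describes replicates as independent experiments. The labels used here do not give the genes introduced into TMS174. All cultures came from 3-day precultures on 20 g/L glucose and began at an OD600 of 0.1 in 50 ml, and they grew semi-aerobically at 30 °C. Peptone at 20 g/L and yeast extract at 10 g/L were in every main medium. The xylose medium held 50 g/L xylose, and the labels state 20 g/L glucose for the glucose medium, an amount left uncertain by that medium's name. Sugar and sampling time changed together between the WT groups, so they cannot be told apart. Slide 1 carried the 6 WT arrays and slide 2 the TMS174 arrays, so a slide effect and a strain effect cannot be told apart either. In bulk cultures, a change in every cell and a change in the share of cells that carry a transcript cannot be told apart.

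Xylose is a pentose. In xylose-using yeasts it is reduced to xylitol, oxidised to xylulose and phosphorylated to xylulose 5-phosphate, which enters the pentose phosphate pathway and from there glycolysis. Glucose represses many genes for other carbon sources in yeasts, so a change of sugar generally alters sugar transporters, respiratory enzymes and enzymes of other carbon sources together. Which of these, if any, are among the 26 transcripts could not be read from the sources used here. The array names each transcript by a design identifier (design ID), and none of the 8604 design IDs matched the 6184 genes of the RefSeq table for the Cybja1 assembly. The transcripts are therefore described by design ID, with no gene name, role or sequence.

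RNA was labelled with Cy3 and read on one-colour oligonucleotide arrays with 1 or 2 probes for each member. Signal is given as log2 of a probe's background-subtracted intensity over the 75th percentile of its array, averaged over the probes of a design ID. A value of 0 thus equals that percentile, and a difference of 1 is a doubling. Between 87.8% and 95.2% of spots were well above background per array, a flag of the scanner software, and no spot was saturated. The 75th percentile itself lay between 2958 and 4130 intensity units. The number of arrays limits the precision of every value below.

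Over the 26 members the strain step had a median of 0.88 (1.84-fold) and ran between 0.60 and 2.61 (1.51-fold to 6.12-fold). The median over the 7970 design IDs tested was -0.04. The sugar step had a median of 1.09 (2.13-fold) and ran between 0.60 and 5.99 (1.52-fold to 63.5-fold), beside a median of 0.02 over all tested. The whole rise, TMS174 on xylose over WT on glucose, had a median of 2.09 (4.25-fold) and ran between 1.24 and 7.31 (2.37-fold to 159-fold), beside -0.05 over all tested. These 3 differences share arrays, and the WT xylose arrays enter the strain step and the sugar step with opposite sign, so their errors are not independent and no correlation between them is given. The sugar step reached 1 in 15 members, the strain step in 9, and both did in 7.

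On the main scale, most members had already made the larger part of their rise in WT on xylose. The sugar step exceeded the strain step in 20 members and fell short of it in 6. This split depended on the processing: with a normexp background correction the sugar step was the larger in 13 members and the strain step in 13, and with scaling to spike-in probes the counts were 25 and 1. On the main scale the sugar step made up 58.5% of the whole rise at the median. The highest share was 81.9%, in cut01g0050376, and the lowest was 18.7%, in cut01g0040668, with the next lowest member at 41.3%. Thus cut01g0040668 lay apart from the others, with most of its rise between the strains.

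**Figure D1:**
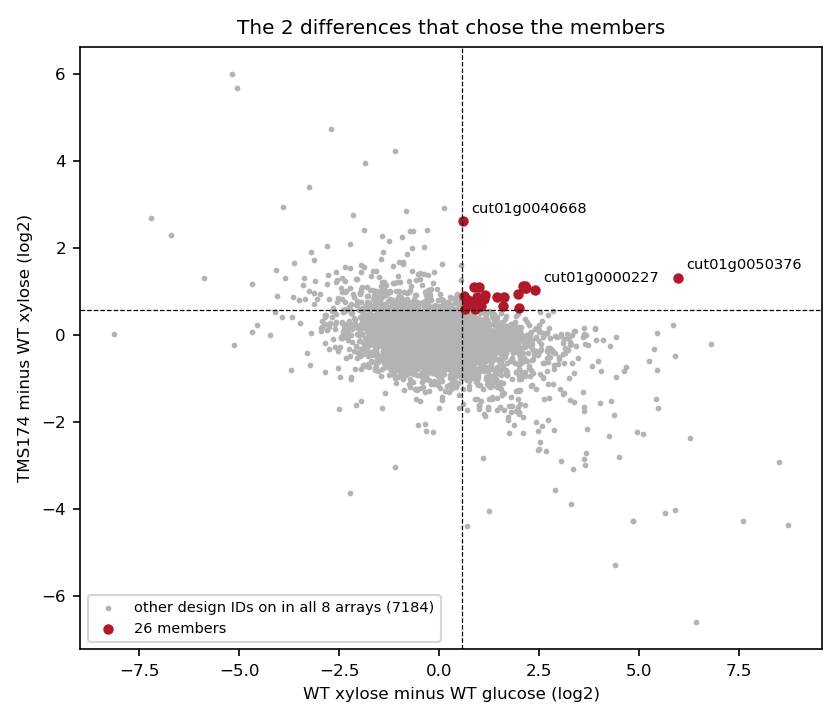
Strain step (TMS174 minus WT, both on xylose, log2) against sugar step (WT xylose minus WT glucose, log2) for design IDs above background on all 8 arrays, with the 26 members marked. The members lie in the corner past 1.5-fold on both axes, mostly close to its edges, and cut01g0050376 (sugar step 5.99) and cut01g0040668 (strain step 2.61) stand apart from the rest.

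The values of the arrays did not overlap for most members. The lowest TMS174 array lay above the highest WT xylose array in 26 of 26 members, which also held for 26.1% of all tested design IDs. The lowest WT xylose array lay above the highest WT glucose array in 25 of 26 (36.8% of all tested), cut01g0040668 being the exception. TMS174 lay above WT glucose without overlap in 26 of 26 (36.1% of all tested). The rule chose the members by the means of these same arrays, so nothing is read from the counts. The gap between the lowest TMS174 and the highest WT xylose array ran between 0.07 and 1.96, with a median of 0.55, so in some members the separation was small. Between the lowest WT xylose and the highest WT glucose array the median gap was 0.69, and the smallest among the 25 separated members was 0.12.

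In the limma fit across all tested design IDs, with Benjamini-Hochberg adjustment at 0.05, 19 of the 26 members were called higher in TMS174 than in WT on xylose, beside 7.31% of all tested design IDs. Higher in WT on xylose than on glucose were 25 of 26 (34.9% of all tested), and higher in TMS174 on xylose than in WT on glucose were 26 of 26 (29.5% of all tested). Since these contrasts chose the members, nothing is read from the counts. The count for the strain step fell when any WT xylose array was left out. It was 12 without replicate 1, 13 without replicate 2 and 10 without replicate 3. Without WT glucose replicate 1, 2 or 3 it was 16, 23 or 20. Leaving out a TMS174 array leaves 1 in that group, so only the members' median strain step is given. It was 0.96 without TMS174 replicate 1 and 0.78 without replicate 2.

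**Figure D2:**
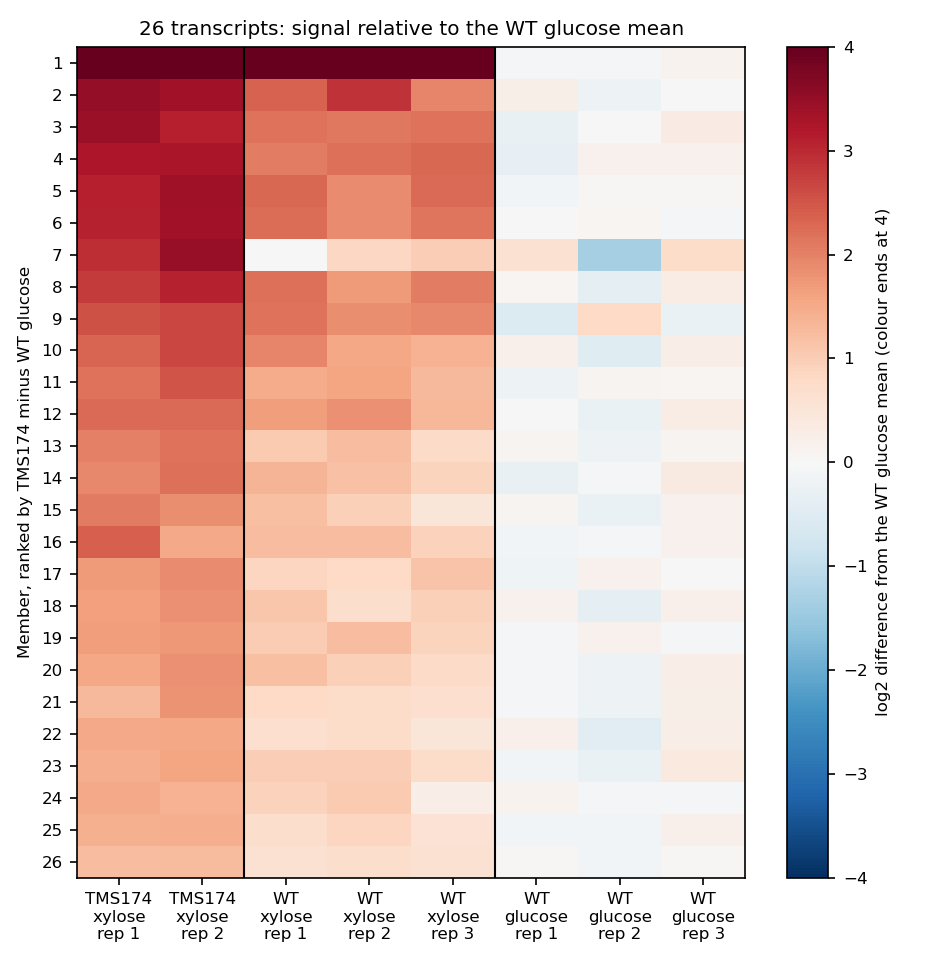
Signal of each of the 26 members on each of the 8 arrays, as log2 difference from that member's WT glucose mean, with members ordered by the whole rise. Colour is deepest in TMS174, lighter in WT xylose and palest in WT glucose in nearly every row. The colour scale ends at 4, which the top row, cut01g0050376, passes.

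The largest whole rise was that of cut01g0050376. Its signal was 4.21 and 3.93 in TMS174, against 3.86, 1.93 and 2.46 in WT on xylose and -3.30, -3.31 and -3.10 in WT on glucose. The glucose arrays agreed closely, while the WT xylose arrays spread widely and 1 of them came within reach of TMS174. The sugar step was 5.99 ± 0.44 (SE), a 63.5-fold difference, and the strain step was 1.32 ± 0.50, or 2.50-fold. The limma fit called its sugar step but not its strain step (adjusted p 0.11). In intensity, the mean was 58539 units in TMS174, 31202 units in WT on xylose and 324 units in WT on glucose. With each array left out in turn the strain step lay between 0.91, without WT xylose replicate 2, and 1.87, without WT xylose replicate 1. It was 0.78 with scaling to spike-in probes. Both probes gave nearly the same steps, 1.28 and 1.37 for the strain and 5.96 and 6.01 for the sugar.

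The member with the largest strain step was cut01g0040668. Its signal was 1.53 and 2.07 in TMS174, against -1.44, -0.57 and -0.43 in WT on xylose and -0.80, -2.75 and -0.69 in WT on glucose. TMS174 stood clear of every WT array, while the WT groups overlapped. The strain step was 2.61 ± 0.64 (SE), or 6.12-fold, and the sugar step was 0.60 ± 0.57, or 1.52-fold. The limma fit called its strain step but not its sugar step. That sugar step, just inside the rule, came from 1 array: without WT glucose replicate 2 it was -0.071, and the transcript would not have been a member. The strain step lay between 2.30 and 2.88 when each array was left out in turn.

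Second in whole rise was cut01g0000227, measured by 1 probe. It read -3.24 and -3.38 in TMS174, against -4.37, -3.87 and -4.78 in WT on xylose and -6.52, -6.94 and -6.76 in WT on glucose. The groups followed each other without overlap, with the widest spread in WT on xylose (SD 0.46). The whole rise of 3.43 ± 0.26 (SE), or 10.8-fold, divided into a sugar step of 2.40 and a strain step of 1.03. With each array left out in turn, the strain step lay between 0.81 and 1.27. With the normexp correction the sugar step was 1.11 and the whole rise 1.92, and with scaling to spike-in probes the strain step was 0.49.

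**Figure D3:**
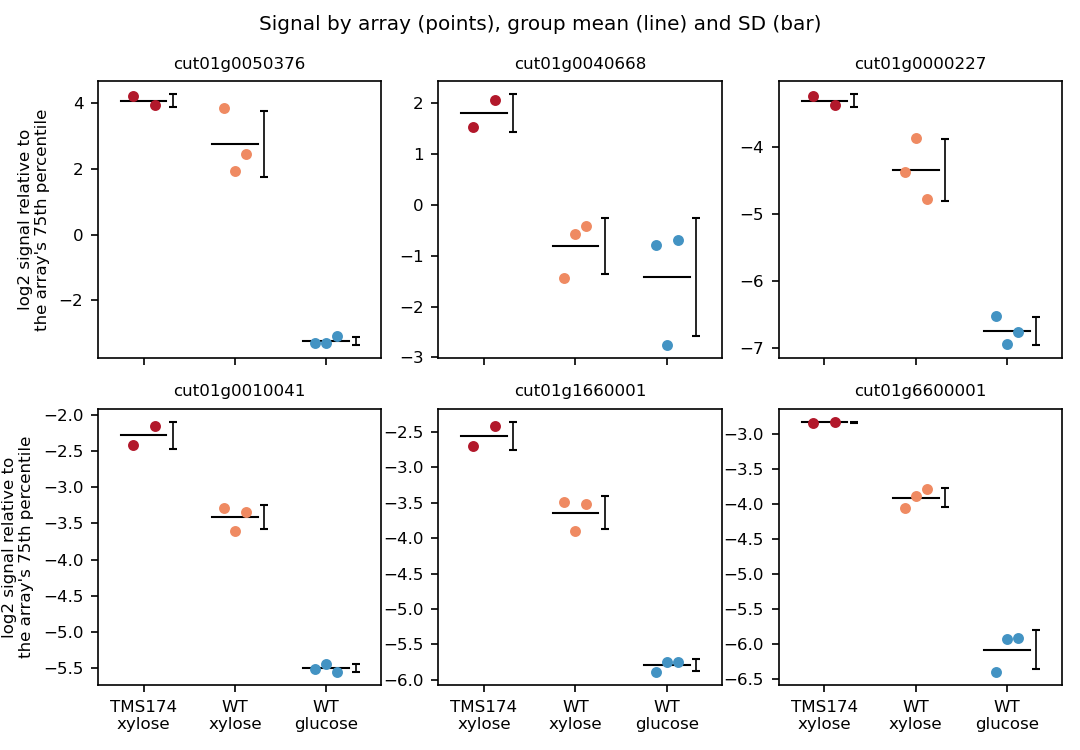
Signal (log2 over the array's 75th percentile) of selected members on each array, with TMS174 on the left, WT xylose in the middle and WT glucose on the right; each point is an array, lines are group means and bars SDs. The step between the WT groups is tall for cut01g0050376 and nearly absent for cut01g0040668, whose WT glucose arrays hold 1 low value of -2.75.

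The other transcripts given by design ID from here on were singled out after their values were seen. The members ranked 3 to 6 by whole rise had almost the same steps on the main scale. In cut01g0010041 the signal was -2.42 and -2.15 in TMS174, against -3.28, -3.61 and -3.35 in WT on xylose and -5.51, -5.44 and -5.55 in WT on glucose. In cut01g1660001 it was -2.69 and -2.41 in TMS174, against -3.49, -3.90 and -3.52 in WT on xylose and -5.90, -5.74 and -5.74 in WT on glucose. All 3 groups stood apart in both transcripts, with close replicates. For cut01g6600001 the values were -2.84 and -2.82 in TMS174, -4.05, -3.88 and -3.78 in WT on xylose, and -6.41, -5.92 and -5.92 in WT on glucose. For cut01g0050281, measured by 1 probe, they were -3.82 and -4.18 in TMS174, -5.12, -5.16 and -5.10 in WT on xylose, and -7.57, -7.31 and -6.96 in WT on glucose. Across these 4 transcripts the sugar step lay between 2.09 and 2.18 and the strain step between 1.08 and 1.13, differences smaller than their standard errors (0.11 to 0.18). All 4 were dim on glucose, and with the normexp correction their sugar steps lay further apart, between 0.70 and 1.42. Whether their probes share sequence, and so may read the same transcript in part, was not tested.

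The steadiest member was cut01g0001030, with 3.15 and 3.20 in TMS174, against 2.54, 2.64 and 2.55 in WT on xylose and 1.98, 1.84 and 1.99 in WT on glucose. Its replicates differed by little (pooled SD 0.06), and its strain step of 0.60 ± 0.08 (SE) was the smallest in the set. A strain step of 1.10 ± 0.16 (SE) appeared in cut01g0000991, which had 2.30 and 2.46 in TMS174, against 1.30, 1.51 and 1.03 in WT on xylose and 0.38, 0.06 and 0.38 in WT on glucose. Its sugar step was 1.01 ± 0.15. In cut01g0030679 the signal was 3.71 and 3.70 in TMS174, against 3.11, 3.25 and 2.77 in WT on xylose and 1.41, 1.16 and 1.72 in WT on glucose. Its sugar step was 1.61 ± 0.17 and its strain step 0.66 ± 0.19, which the limma fit did not call.

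Other members had a wide spread within 1 group. In cut01g0000009 the TMS174 arrays read -0.79 and -1.67, against -1.96, -1.96 and -2.27 in WT on xylose and -3.29, -3.26 and -3.01 in WT on glucose. The TMS174 replicates differed more than those of either WT group (SD 0.62 in TMS174). The strain step of this member was not called in the limma fit. In cut01g0020744 the spread lay in WT on glucose instead, with -2.0 and -1.86 in TMS174, -2.35, -2.67 and -2.60 in WT on xylose, and -5.07, -3.72 and -4.81 in WT on glucose. Its sugar step was 1.99 ± 0.33 (SE), and its strain step was 0.61 ± 0.36, which the limma fit did not call.

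The spread between replicates was not used by the rule. The pooled SD of a member had a median of 0.24 (quartiles 0.18 and 0.29), beside 0.13 (0.09 and 0.21) over all 7210 design IDs above background on 8 arrays. Within groups the members' median SD was 0.15 in TMS174 (0.07 over the 7210), 0.19 in WT on xylose (0.10) and 0.23 in WT on glucose (0.14). Replicates of the members thus differed more than those of the typical transcript, and how far the choice by group means brought this about was not tested. Dim signal went along with this only in part. Among members with a mean WT glucose signal under 100 units the median pooled SD was 0.24, beside 0.23 for all such transcripts. For members between 100 and under 1000 units it was 0.29, beside 0.14, and for those of 1000 units or more 0.20, beside 0.11.

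Within a group the members tended to deviate together. TMS174 replicate 2 lay above its group mean in 19 of 26 members. WT xylose replicate 3 lay above its group mean in 8 of 26 and replicate 1 in 19. WT glucose replicate 3 lay above in 21 of 26 and replicate 2 in 7. Across arrays the same share was 45.8% to 55% over the 7210. The median deviation was largest in WT glucose replicate 3 (0.17) and WT xylose replicate 3 (-0.15), small beside the median steps.

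Members were more often dim on glucose than other transcripts. Mean WT glucose signal was under 100 units for 12 members (46.2%, beside 16% of the 7210), between 100 and under 1000 units for 7 (26.9%, beside 29.9%) and 1000 units or more for 7 (26.9%, beside 54.1%). The rule uses the glucose values, so the shares are given without a test. The dimmest was cut01g0020880, with -6.40 and -6.20 in TMS174, against -6.92, -7.32 and -7.08 in WT on xylose and -7.85, -8.43 and -7.83 in WT on glucose. Median sugar steps were 1.81 in the dim class, 0.96 in the middle class and 0.71 in the bright class, and median strain steps were 0.94, 0.81 and 0.74 in that order. With the normexp correction this order was lost: the median sugar steps were 0.53, 0.76 and 0.72 and the median strain steps 0.73, 0.78 and 0.74 for the dim, middle and bright classes. The glucose values set both the class and the sugar step, so no relation is read from them.

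Most members rested on a pair of probes that gave similar steps. Of the 20 members with 2 probes, both probes passed the strain step in 17, the sugar step in 18 and both steps in 16. Over all 6135 design IDs with 2 probes among the 7210, these counts were 191, 1210 and 16. The rule used the mean of the same probes, so nothing is read from the members' counts. The gap between the probes of a member had a median of 0.09 for the strain step and 0.06 for the sugar step. Over the 6135 the median gap was 0.07 for each, so the members' probes were about as close as is usual. The largest gap in a member was 0.42 for each step. The lowest strain step of a single probe of these members was 0.53, and the lowest sugar step was 0.56. The other 6 members had 1 probe (23.1%, beside 14.9% of the 7210), and all 6 were dim. Their mean signal was 77.6 to 349 units in TMS174, 55.7 to 202 units in WT on xylose and 19.9 to 32.9 units in WT on glucose.

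The bounds of the rule passed through a continuous range of values. Just inside the strain bound lay members with steps of 0.60 and 0.61, and just outside it transcripts with 0.58 and 0.56, whose sugar steps were 1.06 and 1.01. Just inside the sugar bound lay 0.60, in cut01g0040668, and 0.63. Just outside it were a pair of transcripts at 0.56, with strain steps of 0.61 and 1.61. With both bounds at 1 there were 7 members, and with both at 0.3 there were 168.

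How the arrays were brought to a common scale moved the strain step most. The arrays carry spike-in RNA, and with scaling to its 6 probes the median of the 7210 was -0.55 for the strain step (-0.01 with the 75th percentile) and 0.37 for the sugar step (-0.03 with the 75th percentile). On that scale all 26 members were still higher in TMS174 than in WT on xylose, by 0.06 to 2.07 with a median of 0.34, and 2 of them, cut01g0050376 and cut01g0040668, kept both steps. Relative to most transcripts the members stood as far above as before, since the scaling moves every transcript alike. With the normexp background correction, run on median spot intensities with an offset of 50, the sugar steps of dim members were lower: the median was 0.53 in that class, and 2 of its 12 members had values below 0. The offset is added to every spot, which by arithmetic shrinks ratios between dim spots, and these members averaged under 100 units on glucose. How much of the lowering came from the offset and how much from other elements was not tested. The normexp correction kept both steps in 6 of the 12 dim, 4 of the 7 middle and 5 of the 7 bright members.

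**Figure D4:**
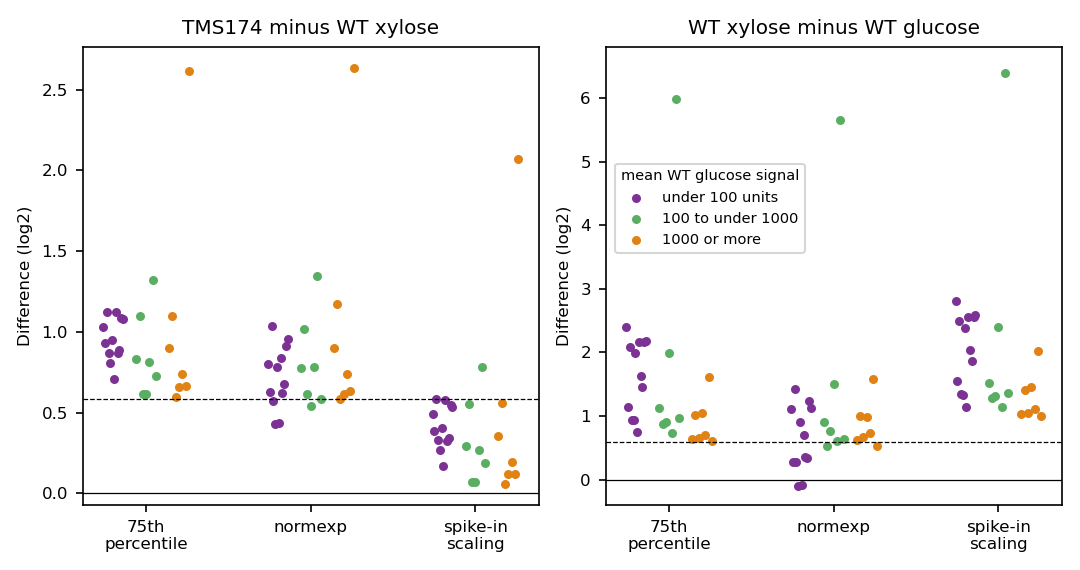
Strain step (left, TMS174 minus WT xylose, log2) and sugar step (right, WT xylose minus WT glucose, log2) of each of the 26 members under the 75th percentile scaling, the normexp correction and the spike-in scaling, coloured by mean WT glucose signal, with a dashed line at 1.5-fold. Strain steps slide down together with the spike-in scaling to a median of 0.34, and sugar steps of members under 100 units shrink under normexp to a median of 0.53.

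Design IDs carry a number whose first digits form groups. In the groups 000 to 007 lay 23 members (88.5%, beside 92.0% of the 7210), so members were found across the numbering rather than in 1 group, with none in 006 or 007. The other 3 lay in small groups of 1 to 12 design IDs. The sources used here do not state whether neighbouring numbers are neighbours on the genome.

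The design IDs numbered next to members mostly did not share their pattern. Of 38 such neighbours above background on all arrays that were not members, the median strain step was 0.06 and the median sugar step 0.06. The strain step was passed by 4 of them (10.5%, beside 4.41% of the 7210) and the sugar step by 11 (28.9%, beside 21.3%). Some neighbours had strong sugar steps without a strain step. Next to cut01g0050376, the transcript cut01g0050375 had a sugar step of 3.27 and a strain step of -0.23. Next to cut01g0030679, cut01g0030678 had a sugar step of 5.86.

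A single pair of members had consecutive numbers. In cut01g0050554 the signal was -5.08 and -4.72 in TMS174, against -5.45, -5.85 and -6.00 in WT on xylose and -7.20, -7.87 and -7.12 in WT on glucose. In cut01g0050555 it was -2.95 and -2.65 in TMS174, against -3.29, -3.55 and -3.74 in WT on xylose and -4.55, -4.69 and -4.23 in WT on glucose. The limma fit called the strain step of cut01g0050555 but not that of cut01g0050554. Both lay inside a run of 8 consecutive design IDs, cut01g0050551 to cut01g0050558. Each was above background on all 8 arrays and at least 0.3 higher in TMS174 than in WT on xylose. Noticed after the values were seen, this was the longest such run on the array, the next longest being 5, and the longest run of lower values was 6. Just before it, cut01g0050550 had a strain step of 0.42 but was not above background on all 8 arrays. The strain steps were 0.32, 1.01, 1.23, 0.87, 0.73, 0.56, 0.56 and 1.25 in order of number (median 0.80), and TMS174 lay above WT on xylose without overlap in 7 of the 8 (26.1% of all tested). Sugar steps in the same order were 1.41, -0.99, -1.37, 1.63, 0.96, 0.35, 0.21 and -0.76. Of these, 5 were above 0 and 3 below. The design IDs of the run were chosen for their strain steps, so nothing is read from those. Still at least 0.3 higher in TMS174 were 4 of the 8 with spike-in scaling (median 0.26), 6 with normexp, 7 without WT xylose replicate 2 and 7 without TMS174 replicate 1.

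**Figure D5:**
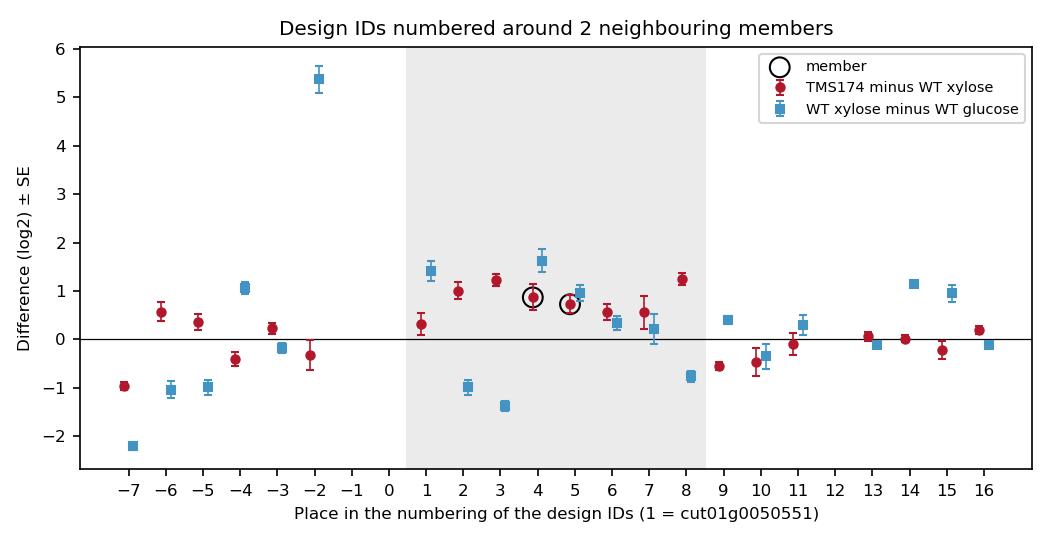
Strain step (red circles, TMS174 minus WT xylose) and sugar step (blue squares, WT xylose minus WT glucose), each in log2 with its SE, by place in the numbering around the members cut01g0050554 and cut01g0050555 (ringed); places without points were not above background on all 8 arrays. In the shaded run of 8 the red points all lie above 0 (0.32 to 1.25) while the blue points lie between -1.37 and 1.63.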

How the data were processed

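The scanner images went through Agilent Feature Extraction 9.5.3.1, per the submitters' processing notes. Per the file headers, each deposited file of an array holds a linear, background-subtracted intensity per spot, median spot and background intensities, and 0 or 1 flags. The deposited value table holds, judged by its values, the ratio of that intensity to a constant of each array. No source used here says how the constant was set. By its values it lay close to the array's 75th percentile (2953 to 4123 units, beside 2958 to 4130 units). The deposited ratios are therefore nearly the main scale again.

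From the deposited intensity, log2 signal minus the log2 75th percentile of the 15208 non-control probes was averaged per design ID; 536 control spots were left out. The 3 groups were fitted together with limma 3.58.1 in R 4.3.3 (lmFit, eBayes, 5 residual degrees of freedom) over the 7970 design IDs above background on at least 2 arrays (634 were not tested). P-values were two-sided and adjusted by Benjamini and Hochberg at 0.05. They set each group difference against the spread between cultures within groups, pooled over the 3 groups. Each group lay on 1 slide, so that spread holds no variation between slides.

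Members and lists were chosen with earlier results of these data known. The planned gene lists could not be applied, since no design ID matched a gene. The naming rule gave cut01g0050376, cut01g0040668 and cut01g0000227; the other design IDs were singled out after their values were seen. Alternatives were other scalings, normexp (on median spot intensities), the deposited ratios, other filters, single probes, other fits, other bounds and leaving out each array.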

Additional observations from a re-analysis of the deposited data

How the results depend on the processing

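The rule gave 26 members on the main scale, 34 with quantile normalization, 32 with median scaling, 26 with the deposited ratios, 27 with a filter on single probes, 20 when each probe had to pass by itself, 18 with normexp and 4 with spike-in scaling. Kept of the original members were 23 with quantile normalization, 23 with median scaling, 26 with the deposited ratios, 26 with the probe filter, 20 with each probe by itself, 15 with normexp and 2 with spike-in scaling. The deposited ratios nearly repeat the main scale, so nothing is read from their agreement with it. Leaving out 1 array gave 25 to 31 members, of which 20 to 26 were among the 26. Bounds of 1 and 0.3 gave 7 and 168. With spike-in scaling the median strain step was 0.34, the median sugar step 1.49 and the number of members called higher in TMS174 than in WT on xylose 3. With normexp the median sugar step was 0.71 and the median rise of TMS174 over WT on glucose 1.54. Leaving out 1 WT array gave 10 to 23 members called higher in TMS174 than in WT on xylose. It gave a sugar step of -0.071 to 0.96 for cut01g0040668, the lowest value being that without WT glucose replicate 2. The cause of the other changes was not tested. Known from the methods are the fewer arrays when 1 is left out, the shift of all transcripts by spike-in scaling and the normexp offset.

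Replicate numbers are shared by the groups, and whether they pair the samples is not known. Deviations of same-numbered arrays correlated at -0.06 and -0.15 for TMS174 and WT on xylose and at 0.04, 0.15 and 0.01 for the WT groups. For TMS174 and WT on glucose the values were 0.19 and 0.006. They cannot decide the question, since differently numbered arrays were not compared. With the replicate number as a block, 10 members were called higher in TMS174 than in WT on xylose, 25 higher in WT on xylose than on glucose and 26 higher in TMS174 than in WT on glucose.

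Only 2 TMS174 arrays on a slide of their own stand behind the strain step. Signals near background on glucose limit the sugar step of the 12 dim members.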
